A study of Caenorhabditis elegans with 2 samples.

Results

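MADF-6 summits that lie between 2 divergent protein-coding genes were examined in young adult Caenorhabditis elegans. Proteins of the MADF family carry a domain of the Myb and SANT class that can bind DNA. A divergent pair here is a minus-strand gene on the left and a plus-strand gene on the right, transcribed away from each other. A summit was a member when it lay within 500 bp upstream of the annotated 5′ ends of both genes, in the conservative peak list that combines both replicates. This rule kept 404 of 4384 summits (9.22%). They fall in the gaps of 396 pairs. The chromatin came from whole worms of strain RW12237, whose allele st12237, made with CRISPR, places a TY1::EGFP::3xFLAG tag on madf-6 on chromosome I. The label of each sample gives 63 h and the young adult stage for worms that had been synchronised by starving first-stage larvae. The samples form 1 group of 2 biological replicates, and immunoprecipitation used an antibody against GFP. Whole animals were used, so a summit cannot be placed in a tissue, and an untagged strain was not analysed here.

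In worms, as in other animals, genes that start close together and run in opposite directions share the DNA between their starts, and a protein bound there is near both. The annotated 5′ end of a worm gene need not be where transcription starts, because many transcripts are trans-spliced, so that a splice leader replaces their original 5′ end. A summit in such a gap therefore cannot be assigned to either gene from these data. Both replicates' peaks were called against the same control library, so their agreement includes what that control contributes.

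The young adult hermaphrodite is filled by its germ line, where oocytes are loaded with the mRNAs and proteins for meiosis and the first embryonic divisions. Of the 25 pairs with the highest MADF-6 signal among those present in both replicates' own lists, 8 held a gene of replication and cell division. So did 35 of the 293 members in both own lists and 43 of all 404 members. A gene of the germ line and oocyte was held by 7 of the 25, 18 of those 293 and 27 of all members. The 8 and the 7 both include mei-2/syp-6 and rec-8/mex-5. The sequences below are the 101 bases around the summit, or fewer where a 5′ end is nearer, on the plus strand of WBcel235 (identical to ce11), read from the RefSeq genome sequence. Capitals mark the 6 words most enriched over the flanks at member summits of chromosomes II and IV, each on either strand. The words of 6 bases were ACCGTA, which led, then GAGACC, followed by GGCGCA. In replicate 2's own list, GAGACC led instead. The words of 8 bases were GCGAGACC, which contains the word ranked behind ACCGTA, and AAAGGCGC, which overlaps AAGGCGCA along most of its length. The first set holds pairs of very high signal that contain such words, and its last line is the whole gap of coh-4/pid-5, where a stretch rich in G and C lies between stretches rich in A and T.
cogc-2/klp-18, chrIV:7039868-7039968: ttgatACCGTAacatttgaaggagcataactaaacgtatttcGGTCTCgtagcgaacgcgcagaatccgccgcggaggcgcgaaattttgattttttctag
bmk-1/coh-3, chrV:14457217-14457317: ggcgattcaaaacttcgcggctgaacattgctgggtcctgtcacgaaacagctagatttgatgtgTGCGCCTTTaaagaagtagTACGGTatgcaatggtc
npp-3/top-2, chrII:11874838-11874938: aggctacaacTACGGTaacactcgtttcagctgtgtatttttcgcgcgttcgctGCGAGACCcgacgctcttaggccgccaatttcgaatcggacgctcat
T11G6.2/hars-1, chrIV:10858497-10858557: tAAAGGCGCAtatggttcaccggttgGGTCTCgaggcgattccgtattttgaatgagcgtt
snpc-3.1/puf-7, chrIV:5486520-5486620: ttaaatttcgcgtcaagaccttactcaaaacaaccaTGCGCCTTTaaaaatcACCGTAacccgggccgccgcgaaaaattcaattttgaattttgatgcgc
rpl-20/Y17G9B.5, chrIV:4750018-4750118: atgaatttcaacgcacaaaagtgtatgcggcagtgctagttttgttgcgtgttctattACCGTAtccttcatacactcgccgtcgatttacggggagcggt
rec-8/mex-5, chrIV:13353382-13353482: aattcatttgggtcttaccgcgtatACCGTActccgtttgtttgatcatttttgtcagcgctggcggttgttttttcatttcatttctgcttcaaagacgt
coh-4/pid-5, chrV:4175641-4175881: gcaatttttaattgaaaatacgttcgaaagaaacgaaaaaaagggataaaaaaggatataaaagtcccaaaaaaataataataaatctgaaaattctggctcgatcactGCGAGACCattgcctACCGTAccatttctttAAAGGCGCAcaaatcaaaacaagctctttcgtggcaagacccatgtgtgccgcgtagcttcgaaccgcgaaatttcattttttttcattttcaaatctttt

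The second set holds pairs of similar signal whose windows contain none of these words. They are shown because high signal also occurred without a leading word near the summit.
tbb-1/rib-2, chrIII:10742644-10742744: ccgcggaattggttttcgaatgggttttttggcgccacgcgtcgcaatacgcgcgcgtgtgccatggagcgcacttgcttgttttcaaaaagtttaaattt
gpr-2/rgr-1, chrIII:9393400-9393500: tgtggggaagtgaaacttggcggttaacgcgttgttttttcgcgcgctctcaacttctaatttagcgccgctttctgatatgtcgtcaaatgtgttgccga
dvc-1/ima-1, chrV:11239376-11239476: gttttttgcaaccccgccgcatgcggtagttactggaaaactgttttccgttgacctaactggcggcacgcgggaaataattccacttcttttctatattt
vha-18/pos-1, chrV:8413791-8413891: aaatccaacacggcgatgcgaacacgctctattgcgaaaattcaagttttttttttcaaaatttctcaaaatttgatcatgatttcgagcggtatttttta

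The signal of a peak is the enrichment value the authors deposited with it, and its scale differs between lists, so it is compared only within 1 list. Among these 25 pairs, the rank by signal was 6 to 134 of 4384 in the combined list, 7 to 176 in replicate 1's own list and 6 to 149 in replicate 2's. The replicates' summits lay 0 to 18 bp apart at these pairs. Of the 25, 3 held a gene of the nuclear pore and importin list, against 8 of the 293 members in both own lists and 12 of all 404 members. A listed gene was absent at 4 of the 25, against 189 of all members. The lists were made from gene names.

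The strongest member lay in the 630 bp between cogc-2, which encodes a subunit of a Golgi tethering complex, and klp-18, the kinesin-12 that oocyte meiotic spindles need to become bipolar. Its signal was 3404 in the combined list, 1122 in replicate 1's list (rank 7) and 2219 in replicate 2's (rank 6). The summit was 338 bp from cogc-2 and 293 bp from klp-18, so neither end was close. The next strongest, between the beta-tubulin gene tbb-1 and the heparan sulfate synthesis gene rib-2, had 2954 in the combined list, 966 in replicate 1's (rank 12) and 1997 in replicate 2's (rank 11). The fbxc-23/csc-1 summit had 2365, 806 (rank 20) and 1594 (rank 25) in the same order of lists, and csc-1 encodes a subunit of the chromosomal passenger complex. Each replicate placed these summits near the top of its own list, but they were picked by signal in the list that combines both replicates. Among the same 25 pairs, smn-1/klp-16 (signal 1505) and klp-15/ctnb-1 (signal 1234) lie beside the genes of the kinesin-14 motors, and bmk-1/coh-3 (signal 1999) joins a kinesin-5 gene to a meiotic cohesin gene.

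The meiotic cohesin kleisins were represented by 3 genes. The bmk-1/coh-3 summit ranked 34 in replicate 1 and 33 in replicate 2. The coh-4/pid-5 summit, beside a gene of piRNA-dependent silencing, had signal 1614 and ranked 79 and 57 in the lists of replicates 1 and 2. The rec-8/mex-5 summit joins a further kleisin gene to a maternal CCCH zinc finger gene that helps polarise the early embryo, and its signal was 1229. The gaps of coh-3 and coh-4 share no stretch of 20 bases, although both sequences printed above contain ACCGTA and AAAGGCGC.

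The mei-2/syp-6 gap (signal 1786) separates a katanin subunit of the meiotic spindle from a synaptonemal complex gene. Its own-list values were 525 in replicate 1 (rank 63) and 1289 in replicate 2 (rank 39). The vha-18/pos-1 gap (signal 1152) and the spn-4/spe-39 gap (signal 1099) each hold a maternal RNA-binding protein gene. The hrde-1 gap (signal 1351) belongs to a nuclear Argonaute of germ line inheritance, and the C55B7.11/glh-2 gap, only 97 bp long, to a Vasa-like helicase of P granules (signal 1439).

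A pair was counted as available when its 5′ ends were each other's nearest and left at least 1 base within 500 bp upstream of both. There were 1744 such pairs, and 396 held a summit (22.7%, 95% Wilson interval 20.8 to 24.7). For the 16485 protein-coding genes with no divergent partner in reach, a summit within 500 bp upstream was present at 1074 (6.52%, 6.15 to 6.90). The intervals cover counting error only and treat pairs and genes as independent. Per unit of sequence the order was the same: the gaps held 404 summits in 494 kb within reach (0.817 per kb), and the sequence upstream of 1 gene only held 1238 in 8943 kb (0.138 per kb), a ratio of 5.90. Outside protein-coding genes the densities were 0.835 and 0.155 per kb.

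**Figure D1:**
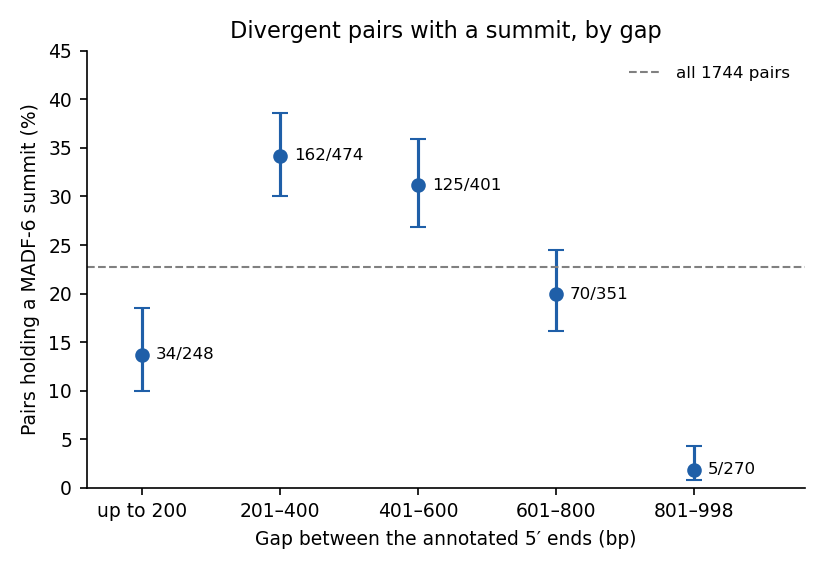
Share of divergent pairs holding a MADF-6 summit (vertical axis, percent) by the gap between the 5′ ends (horizontal axis, bp), with 95% Wilson intervals and the number of pairs at each point; the dashed line is the share of all pairs. Pairs with gaps over 200 and up to 600 bp lie above the line, and those up to 200 bp and over 800 bp below it.

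The share differed with the gap. A summit was present in 34 of 248 pairs with a gap up to 200 bp (13.7%), 162 of 474 with over 200 and up to 400 bp (34.2%), 31.2% of those over 400 and up to 600 bp, 70 of 351 with over 600 and up to 800 bp (19.9%) and 5 of 270 with longer gaps (1.85%). The rule itself narrows what a long gap offers, since a gap of 998 bp leaves 1 base within reach of both ends. Short gaps offer few bases as well. Per kb within reach there were 1.03 summits in gaps up to 200 bp and 1.16 in those over 200 and up to 400 bp. In the longer gaps, in the same order as above, there were 0.733, 0.651 and 0.178 per kb. Gaps with a summit had a median of 406 bp, against 515 bp in the 1348 pairs without one. Gaps of 11 bp (F32D8.14/F32D8.5, signal 134), 35 bp (mbtr-1/Y48G1A.1, signal 126) and 66 bp (gei-14/slc-25A32, signal 723) were the shortest with a summit, and 838 bp (col-38/rpl-5), 899 bp (sqv-3/vha-1) and 900 bp (rtfo-1/K09G1.1) the longest.

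By chromosome the share was 33.1% on III, 32.3% on I, 23.1% on IV, 19.1% on II and 14.7% on V. The interval of V (11.6 to 18.3) lies below those of I, III and IV, while those of I (27.4 to 37.6) and IV (18.7 to 28.1) overlap. On X 2 of 80 pairs held a summit (2.5%, 0.688 to 8.66), against 394 of 1664 on the autosomes (23.7%, 21.7 to 25.8). The X members were T08D2.6/chkr-1 (signal 313, ranked 621 in replicate 1 and 1231 in replicate 2) and snrp-40.1/F08G12.3, which had the lowest signal of all members (3.25) and was in replicate 2's own list but not in replicate 1's.

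Members had a higher median signal than the other summits. It was 248 (quartiles 149 and 450, range 3.25 to 3404), against 201.4 for summits upstream of 1 gene only, 122 for those upstream of none and 149 for the whole list. Among the 438 peaks of highest signal there were 74 of 404 members (18.3%) and 17.2% of summits upstream of 1 gene, against 9.99% of all peaks. Members were narrower as well, with a median width of 235.5 bp, against 293.5 bp upstream of 1 gene and 320 bp for the remaining peaks. The replicates' own lists showed the same order of medians, with 102 at summits between pairs against 71.7 overall in replicate 1 and 164 against 99.4 in replicate 2.

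The summits between pairs were found in both replicates more often than other summits. Peaks of both own lists overlapped, by at least 1 bp, 293 of 404 members (72.5%, 68 to 76.7). The shares were 66.5% (63.8 to 69.1) for summits upstream of 1 gene, 49.1% for the remaining summits and 56.1% for all peaks. The interval upstream of 1 gene overlaps that of the members. A further 95 members were in replicate 2's list only, 5 in replicate 1's only and 11 in neither. Replicate 2 has the longer list, with 4519 peaks against 2791 nuclear peaks in replicate 1, and gaps of divergent pairs held 428 (9.47%) and 311 (11.1%) of them. Where both replicates had a peak, their summits lay a median of 10 bp apart at members (95% interval 8 to 11, n = 293) and 15 bp at all other peaks (14 to 16, n = 2168), though 11 bp at summits upstream of 1 gene. They lay within 25 bp of each other at 84.3% of these members and 66.2% of the other peaks. Peak signal and width differed between these sets as given above, and their part in the agreement was not tested.

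The members found in neither own list with the highest signal were ruvb-1/tofu-1 (signal 115), Y73E7A.6/adpr-1 (101) and dcr-1/apc-2 (98.2). These 3 values are below the median of the whole list.

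Over all gaps, summits were central more often than the sequence on offer, an excess seen in gaps over 200 and up to 600 bp. The central of 3 equal parts of the gap held 210 of 404 summits (52%, 47.1 to 56.8), against 41.1% of the bases within reach in the same gaps. In gaps over 200 and up to 400 bp the central part held 79 of 163 summits (48.5%, 40.9 to 56.1), against 33.4% of bases. In gaps over 400 and up to 600 bp it held 69 of 132 (52.3%, 43.8 to 60.6), against 37.2%. In gaps over 600 and up to 800 bp the shares were close, with 48 of 70 summits (68.6%, 57.0 to 78.2) against 66.9% of bases, and in longer gaps all bases within reach are central. Gaps up to 200 bp went the other way in value, with 9 of 34 (26.5%, 14.6 to 43.1) against 33.6%, an interval that includes the share of bases.

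**Figure D2:**
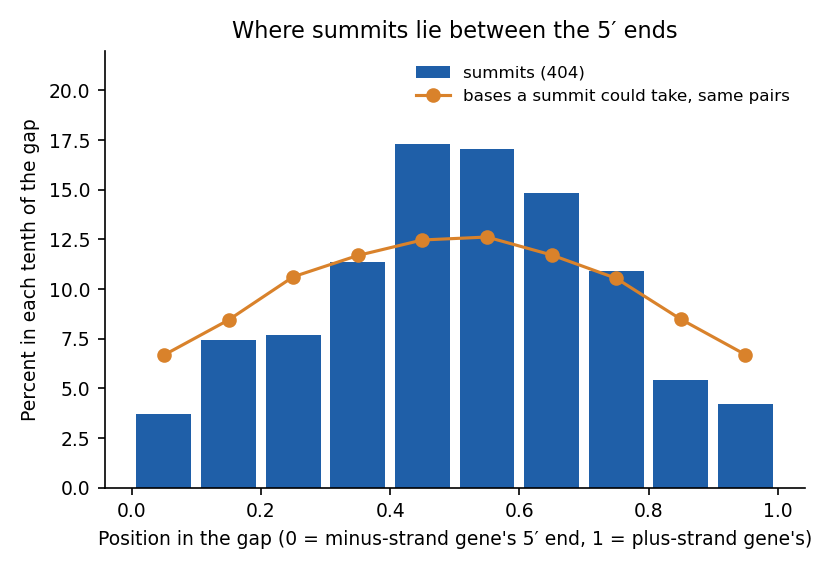
Percent of the 404 summits (bars) and of the bases within reach in the same gaps (line) in 10 equal steps of the gap (vertical axis), from the minus-strand gene's 5′ end at 0 to the plus-strand gene's at 1 (horizontal axis). Summits exceed the bases in the central steps, with 17.3% and 17.1% against 12.5% and 12.6%, and fall below them at both ends.

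The nearer end was that of the plus-strand gene at 211, of the minus-strand gene at 192 and neither at 1. The nearer end was a median of 139 bp away and the farther 274 bp, and 263 summits (65.1%) were at least 100 bp from both. The called peak covered neither 5′ end at 229 members and both at 31. The summits nearest the 500 bp limit on its inner side were those of F29B9.11/jmjd-1.2 (498 bp from the farther end, signal 411), magu-1/nemp-1 (497 bp, 212) and R53.4/psf-1 (494 bp, 167). Just outside it were vps-15/hmg-12 (501 bp, 191), pes-9/R11H6.2 (501 bp, 113) and snt-2/rps-29 (502 bp, 169).

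In 8 gaps there were 2 summits, and in every one of them the summits were 199 to 205 bp apart. The signals of the 2 summits were 1234 and 31.9 at klp-15/ctnb-1, 755 and 248 at ani-2/clec-88, 752 and 39.4 at tim-1/Y75B8A.23, 563 and 373 at fbxc-44/C16A11.2 and 459 and 245 at chk-2/Y60A3A.19. At 4 of the 8 pairs, klp-15/ctnb-1, tim-1/Y75B8A.23, fbxc-44/C16A11.2 and F55A11.1/syx-5, both summits overlap the same peak in each replicate's own list, so the replicates' lists hold 1 peak where the combined list has 2. The weaker summits of ani-2/clec-88 and chk-2/Y60A3A.19 were in replicate 1's own list but not in replicate 2's.

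Base composition around members followed a steep local pattern. G+C was 50.6% ± 8.78 (SD, n = 404) in the first 25 bp to each side of the summit and 41.2% ± 9.32 in the next 25. It reached its lowest value, 27.6% ± 8.92, at 101 to 125 bp and was 37.2% ± 9.46 at 176 to 200 bp. Summits upstream of 1 gene had a shallower course, with 47.3% ± 10.3 at the centre and 30.9% ± 9.87 at 101 to 125 bp (n = 1238). All summits not between pairs had 46.4% ± 10.7 and 34.5% ± 10.5 at these places (n = 3980). The middles of the 1348 pairs without a summit had 34.4% ± 10.5 and 34.1% ± 9.07. Their centre exceeded the step at 51 to 75 bp (33.4% ± 9.29) by far less than at summits. The coh-4/pid-5 gap printed above is an example of this course. The part of G+C content in which gaps gave a peak was not tested.

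**Figure D3:**
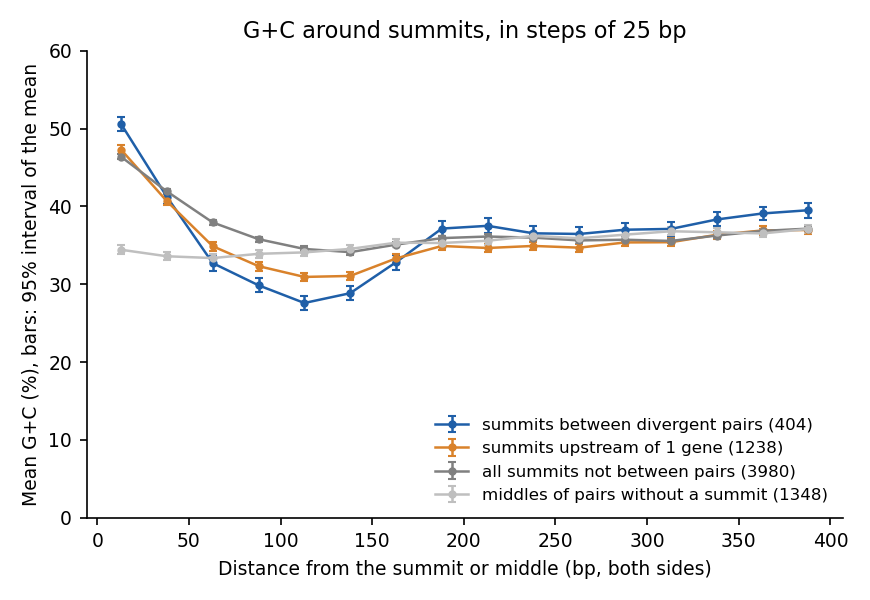
Mean G+C (vertical axis, percent, with the 95% interval of the mean) in steps of 25 bp from the summit, or from the middle of pairs without one (horizontal axis, bp, both sides together). Summits between divergent pairs have the highest centre, 50.6%, and the lowest trough, 27.6%, while the middles of pairs without a summit stay between 33.4% and 37.1%.

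The leading words were picked on members of chromosomes II and IV and described on the 164 members of III, V and X. ACCGTA was in 22.6% of these windows (16.8 to 29.5), 13.4% of windows at summits upstream of 1 gene, 9.99% of those at all summits and 2.69% of the middles of 633 pairs without a summit. GAGACC was in 24.4% of member windows (18.5 to 31.5) and 16.4% of windows upstream of 1 gene (13.4 to 19.9), and these intervals overlap. It was in 12.9% of all summits and 3.95% of the middles of pairs without a summit. GGCGCA was in 23.2% of member windows, 13.4% of all summits and 2.05% of the middles of pairs without a summit. It was also in 20.2% of windows upstream of 1 gene, and that interval overlaps the members' interval. At least 1 of these 3 words was present in 48.2% of member windows (40.7 to 55.8) and 37.2% upstream of 1 gene (33.1 to 41.4). In the middles of pairs without a summit the share was 8.06%. Each such pair gave 1 window, so words elsewhere in its gap were not counted. Windows centred 300 bp to each side of the same members' summits held ACCGTA at 2.74%, GAGACC at 2.44% and GGCGCA at 2.44%. Over all chromosomes, mean G+C was 46% in member windows, 37.2% in these flanks and 34% in the middles of pairs without a summit. The part of G+C in the word shares was not tested.

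The longer words were rarer. GCGAGACC was in 12.8% of member windows against 5.5% of all summits, AAAGGCGC in 13.4% against 7.43%, and AAGGCGCA in 12.8% against 7.05%. Upstream of 1 gene the shares were 6.92%, 11.1% and 10.5%, in the same order of words, and each interval overlaps that of the members. In the middles of pairs without a summit they were in 1.11%, 0.474% and 0.158%. The median distance from the summit was 11 bp for GAGACC, 20.5 bp for GGCGCA and 25.5 bp for ACCGTA (each over the members that hold it). The median signal of members was 338 with ACCGTA and 236 without it, 280 and 237 for GAGACC, and 310 and 230 for GGCGCA. A match is a run of letters, and its absence says nothing about which factor bound.

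**Figure D4:**
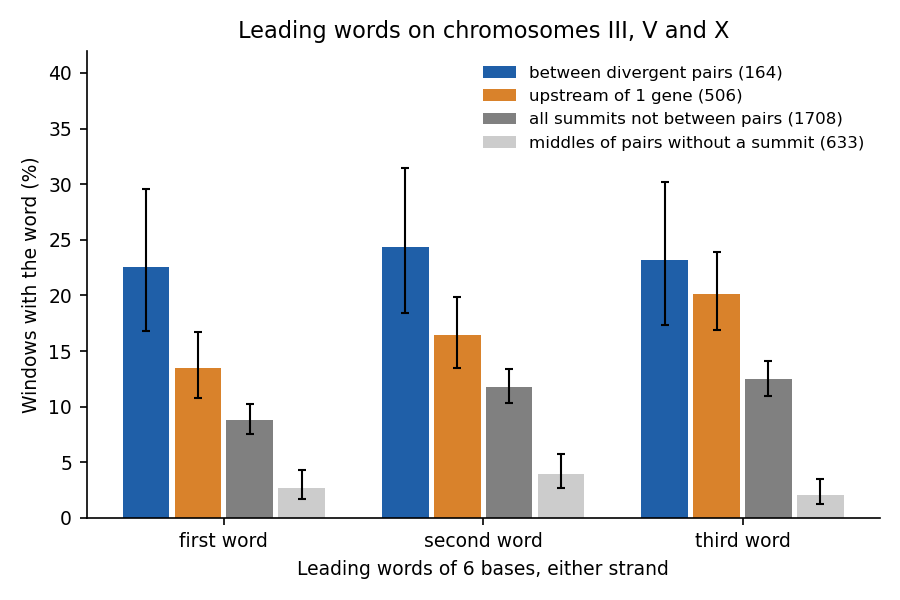
Percent of windows of 101 bp (vertical axis, with 95% Wilson intervals) that contain each leading word of 6 bases (ACCGTA, the first, then GAGACC, then GGCGCA) (horizontal axis) on chromosomes III, V and X, at summits between divergent pairs, at summits upstream of 1 gene, at all summits not between pairs and at the middles of pairs without a summit. Each word is at 22.6% to 24.4% of the member windows and at 2.05% to 3.95% of the middles of pairs without a summit.

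One arrangement of 2 of the words was noticed in windows outside the chromosome that carries madf-6 and chosen after their values were seen: GGCGCA followed on the same strand by GGTCTC, the reverse complement of GAGACC, with 16 to 20 bases between. The T11G6.2/hars-1 window above shows it. Outside that chromosome it was in 15 of 299 member windows (5.02%, 3.06 to 8.11) and 4.51% of windows upstream of 1 gene. It was in 2.73% of all summits and at the middle of 1 of 1132 pairs without a summit. On the chromosome of madf-6, the arrangement was in 6 of 105 member windows (5.71%, 2.64 to 11.9). Upstream of 1 gene it was in 14 of 262 windows there (5.34%, 3.21 to 8.77), and in 3.9% of all summits. It was at the middle of 0 of 216 pairs without a summit, which allows up to 1.39% (3 counts of the total). The 15 members include ncap-1/Y110A2AR.1 (signal 660), memi-3/cyp-31A2 (367), C29E4.13/npp-15 (291) and chk-2/Y60A3A.19 (the weaker of its 2 summits, 245).

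Some members sit in sequence that has a near copy at another member, so reads could be split between them, and their separate signals are uncertain. The pairs in this and the next paragraph were chosen for that, after their values were seen. Of the 396 gaps, 22 aligned over at least 100 columns with another. The memi genes, whose products act in female meiosis, are an example. All 3 gaps between a memi gene and its cytochrome P450 neighbour of the cyp-31A family, on chromosome IV, held a summit, with signal 918 at memi-1/cyp-31A3, 367 at memi-3/cyp-31A2 and 188 at memi-2/cyp-31A5. Their gaps were 71.9% to 78.3% identical over 544 to 650 aligned columns, and their summit windows can be compared letter by letter.
memi-1/cyp-31A3, chrIV:4760827-4760927: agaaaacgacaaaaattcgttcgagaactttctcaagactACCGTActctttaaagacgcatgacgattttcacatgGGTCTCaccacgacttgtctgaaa
memi-3/cyp-31A2, chrIV:11403744-11403844: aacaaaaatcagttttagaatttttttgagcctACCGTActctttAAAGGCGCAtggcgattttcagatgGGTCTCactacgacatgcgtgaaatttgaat
memi-2/cyp-31A5, chrIV:13400853-13400953: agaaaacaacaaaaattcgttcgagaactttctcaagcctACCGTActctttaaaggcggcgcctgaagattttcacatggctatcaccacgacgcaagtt

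The G-protein regulator genes gpr-1 and gpr-2, which position the spindle in the early embryo, also had a summit each. The gpr-2/rgr-1 signal was 1519 and the polk-1/gpr-1 signal 754, with 90.6% identity over 342 columns. The gap of chk-2, the meiotic checkpoint kinase gene on V, and that of chkr-1 on X were 86.3% identical over 527 columns, so 1 of the 2 members on X has a near copy on an autosome. Alignments also linked htp-1 with htp-2, genes of the meiotic chromosome axis, and his-63/his-64 with his-60/his-59. A stretch of 220 to 314 columns, 93.9% to 98.2% identical between any pair of them, recurred in the gaps of ZK973.11/ZK973.1, cids-2/phip-1, F30A10.9/usp-48, aka-1/ubc-6, C55A6.1/C55A6.10 and ruvb-1/tofu-1 on chromosomes I, II and V. A shorter copy, 89.7% to 91.5% identical to these, was in czw-1/F20D12.12 on IV. Their signals were 593, 534, 324, 403, 216, 115 and 892, in the same order.

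Most members nevertheless lie in unique sequence. No 31-base word of the peak recurred on the nuclear chromosomes at 366 of 404 members (90.6%, 87.4 to 93.1), against 69.8% of all other peaks (68.4 to 71.2). Members were narrower (median 235.5 against 320 bp), so each holds fewer such words, and fewer members lay near small RNA genes. The part of either in this difference was not tested. Peaks in which at least 50% of such words recurred were 2 among members (0.495%), at snpc-3.1/puf-7 and F14D2.14/bath-29 (so both signals are uncertain), and 6.36% among the other peaks. Without the 22 gaps the share of pairs with a summit was 21.7% and the share of members in both own lists 72.4%. Near copies were sought only among gaps with a summit, so only such pairs were left out, and the share of pairs could only fall.

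The genes beside members were compared by lists made from gene names. Of the 3488 genes in divergent pairs, 911 were on a list, and 246 of these had a summit in their gap (27%), against 546 of 2577 genes on no list (21.2%). Among members, 37 had a listed gene on both sides, 178 on 1 side and 189 on neither. The counts below are to be read against 22.7% for all pairs, and both genes of a pair share the summit. Pairs named for a list are among its 4 of highest signal, have a listed gene on both sides, or are marked as chosen after their values were seen.

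The list with the highest share was that of chromatin regulators, although its interval overlaps those of the next lists. In the list of DREAM and synMuv chromatin genes, 12 of 17 genes in pairs had a summit (70.6%, 46.9 to 86.7). The list also takes set, jmjd, hda and wdr genes by name, so not all of the 12 belong to DREAM. They include lin-53, a histone-binding RbAp48 homologue (lin-53/nra-2, signal 1271), the H3K4 methyltransferase gene set-16 (drr-2/set-16, 931) and lin-54, the DNA-binding subunit of DREAM (rpl-12/lin-54, 791). The worm retinoblastoma gene, lin-35, chosen after its value was seen, had signal 443 (vps-51/lin-35). The lin-54 summit lay 36 bp from the ribosomal protein gene and 357 bp from lin-54. Within 250 bp of both ends the count was 6 of 11, and the listed gene was the nearer at 5 of the 12 members. For genes of this list with no divergent partner, 16.2% had a summit upstream.

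Of the replication and cell division genes in pairs, 43 of 69 had a summit (62.3%, 50.5 to 72.8), and at 25 of the 43 members the listed gene was the nearer. Within 250 bp of both ends the count was 21 of 42. Beside the kinesin and cohesin genes above, and chosen after their values were seen, they include mcm-3 and mcm-6 of the replicative helicase (mcm-3/C25D7.15, signal 1071, and R10E11.9/mcm-6, 709), the condensin gene smc-4 (F35G12.7/smc-4, 888) and the B-type cyclin gene cyb-1 (orc-5/cyb-1, 446), whose neighbour encodes a subunit of the origin recognition complex. The checkpoint kinase gene bub-1 shares its gap with lin-61 (signal 600). Genes of this list without a partner had a summit at 33.3%.

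Germ line and oocyte genes followed with 27 of 47 (57.4%, 43.3 to 70.5), against 46.8% of those without a partner, and 9 of 28 within 250 bp of both ends. Chosen after their values were seen, Argonaute genes of small RNA inheritance (F58G1.2/wago-4, signal 676, and hrde-1), translational regulators of the germ line (T07F8.4/gld-3, 619, and Y53C12B.1/nos-3, 358) and a P granule gene (Y65B4BL.4/deps-1, 461) were among them. Of the DNA repair genes 8 of 18 had a summit (44.4%, 24.6 to 66.3), with atm-1 (F56C11.3/atm-1, 548) and msh-2/hus-1 (410), where a mismatch repair gene faces a checkpoint clamp gene.

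**Figure D5:**
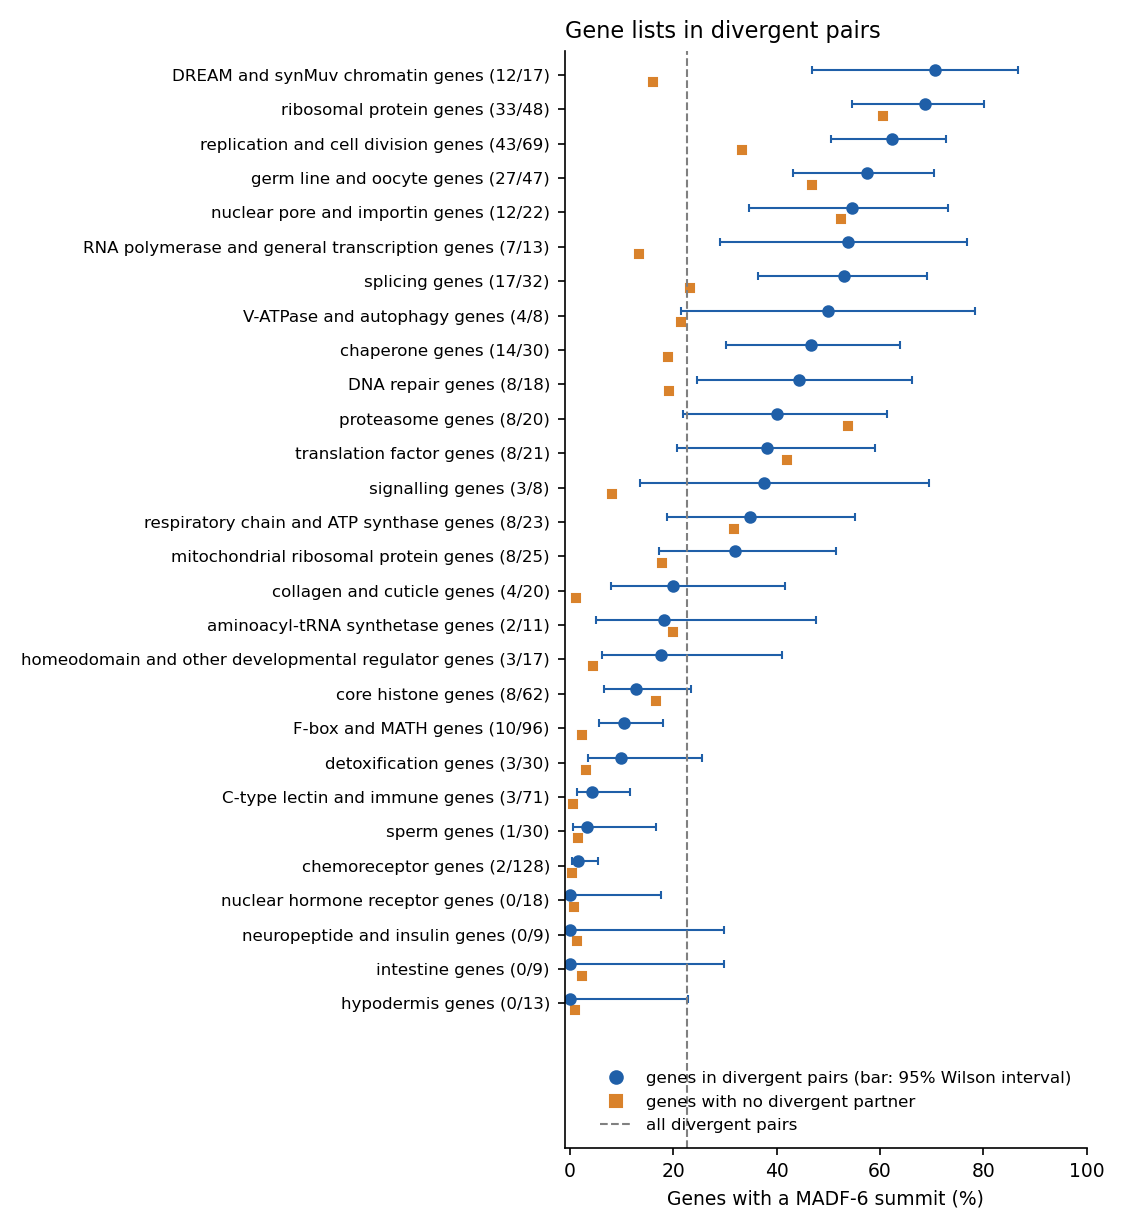
Percent of listed genes with a MADF-6 summit (horizontal axis) for the lists with at least 8 genes in divergent pairs (rows, with counts of genes with a summit and of genes in pairs). Circles with 95% Wilson intervals are genes in divergent pairs, and squares are genes with no divergent partner. The dashed line is the share of all pairs. The DREAM and synMuv chromatin, ribosomal, cell division and germ line lists lie at the top. Nuclear hormone receptor, neuropeptide, intestine and hypodermis genes lie at 0.

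Among housekeeping genes the ribosomal proteins stood highest, with 33 of 48 in pairs (68.8%, 54.7 to 80.1), and 60.6% of those without a partner. The ribosomal gene was the nearer at 12 of their 30 members, and the median distance was 288 bp to it and 220.5 bp to the neighbour. The rpl-20/Y17G9B.5 gap had signal 1700, rpl-15/K11H12.8 had 1294 and rps-19/hsr-9 had 964. A tRNA, snRNA or snoRNA gene lay within 500 bp of some of these summits, and without such summits the count was 26. Within 250 bp of both ends the ribosomal count was 6 of 20, against 18.3% of all pairs at that reach. At the 8 proteasome genes with a summit (of 20 in pairs, 40%, 21.9 to 61.3) the listed gene was the nearer in every case, as at hsp-110/rpn-3 (signal 854), where a chaperone gene faces a subunit of the regulatory particle. Proteasome genes with no divergent partner had a higher share, 7 of 13 (53.8%).

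Nuclear pore and importin genes had 12 of 22 (54.5%, 34.7 to 73.1), among them npp-3/top-2 (signal 1738), which joins a nucleoporin to topoisomerase II, dvc-1/ima-1 (1331) and ran-1/dkc-1 (1218), which joins the transport GTPase to dyskerin. RNA polymerase and general transcription genes had 7 of 13 (53.8%, 29.1 to 76.8), and the listed gene was the nearer at none of their 7 members. The name patterns also counted rpa-4, among these 7, as a replication and cell division gene. Splicing genes had 17 of 32 (53.1%, 36.4 to 69.1) and chaperones 14 of 30 (46.7%, 30.2 to 63.9), led by cct-8/Y55F3AR.2 (1186) and cct-5/F25F2.1 (1022) of the cytosolic chaperonin. The strongest pairs of splicing genes were snr-3/rsp-5 (452) and rsp-2/rsp-1 (344), both with a listed gene on each side. In replicate 1's own list, which stands for the data without replicate 2, the splicing count was 11 and the chaperone count 9. Within 250 bp of both ends, where fewer pairs are available, the counts were 4 of 14 for nuclear pore genes, 8 of 22 for splicing, 3 of 17 for chaperones and 2 of 12 for the proteasome. Nuclear pore and importin genes with no divergent partner had a similar share, 52.4%. Without a partner the share was 13.3% for RNA polymerase and general transcription genes, 23.3% for splicing and 18.9% for chaperones.

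Other lists had smaller counts. V-ATPase and autophagy genes had 4 of 8, translation factors 8 of 21 (38.1%), signalling genes 3 of 8, respiratory chain and ATP synthase genes 8 of 23 (34.8%) and mitochondrial ribosomal proteins 8 of 25 (32%). For genes with no divergent partner the shares were 21.6%, 42.1%, 8.11%, 31.8% and 17.8%, in the same order of lists. The strongest V-ATPase and autophagy pair was vha-18/pos-1 (signal 1152), named above. For translation factors it was clsp-1/eef-2 (786), beside the elongation factor 2 gene. For the respiratory chain and ATP synthase list it was mcrs-1/atp-1 (548), beside an ATP synthase gene. For signalling genes it was mig-5/cct-1 (366), and for mitochondrial ribosomal proteins mrps-7/Y57G11C.3 (225). Without replicate 2 the counts were 5 (translation), 1 (signalling), 4 (respiratory chain) and 5 (mitochondrial ribosome), and without replicate 1 the proteasome list had 13. The madf family had 1 of 3, at madf-8/gsr-1, where a gap of only 74 bp had signal 207. Aminoacyl-tRNA synthetases had 2 of 11, which include hars-1, with its summit 11 bp from T11G6.2 and 450 bp from the synthetase gene. Collagen and cuticle genes had 4 of 20, and 2 without replicate 2, with the collagen gene never the nearer. The homeodomain and developmental regulator list had 3 of 17, 1 of which is the netrin receptor gene unc-40, which its name pattern also took.

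The remaining families had few or no summits in their gaps. Core histones had 8 of 62 (12.9%, 6.69 to 23.4), F-box and MATH genes 10 of 96 (10.4%, 5.76 to 18.1), detoxification genes 3 of 30, all of them the cyp-31A neighbours of memi genes, and C-type lectin and immune genes 3 of 71 (4.23%, 1.45 to 11.7). Chemoreceptors had 2 of 128 (1.56%, 0.430 to 5.52). Sperm genes had 1 of 30, spe-39, whose summit lay nearer to spn-4 (157 bp) than to spe-39 (391 bp), and 2 in replicate 1's own list. There was no summit at 18 nuclear hormone receptor, 13 hypodermis, 9 neuropeptide and insulin, 9 intestine and 3 body wall muscle genes in pairs. A count of 0 allows a share, taken as 3 counts of the total, of up to 16.7% for the receptor genes, 23.1% for the hypodermis genes and 33.3% for the neuropeptide and intestine genes, so only the first of these limits lies below the share of all pairs.

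Few members lay near small RNA genes: 10 of 404 summits (2.48%) lay within 500 bp of a tRNA, snRNA or snoRNA gene, against 4.52% of summits upstream of 1 gene and 11.2% of all other summits. Of the members 26 had a summit inside another annotated gene of the gap, 25 of them non-coding RNA genes, as at ran-1/dkc-1 and hsp-6/C37H5.5 (signal 540), where hsp-6 encodes the mitochondrial Hsp70.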

How the data were processed

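MADF-6::EGFP was immunoprecipitated from whole young adults in 2 biological replicates, sequenced and called into peaks. An aligner and a peak caller were not given in the sources used here. Per the text deposited beside the lists, peaks of both replicates were called against a single control library. The authors deposited a signal (an enrichment value), an IDR score and a summit for each peak, in a conservative list, a less strict list and thresholded and ranked lists per replicate. Read depth is unknown, since the lists give no counts, and the deposited signal was compared only within a list. The score deposited by the authors was used only to count peaks at its maximum, and 16 value columns were not used.

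Summits were placed on WBcel235 with Ensembl release 115 genes. The 31 gene lists are name patterns. Words of 6 and 8 bases were picked on chromosomes II and IV. Shares carry 95% Wilson intervals, which cover counting error only, and no p-value was computed. Peaks were shared from 1 bp of overlap. Pairs that could be named, not all of which are, were the 25 strongest pairs in both own lists, up to 4 per list, up to 10 pairs with both partners listed, up to 5 pairs with 2 summits, the 3 smallest and 3 largest gaps, up to 3 strongest members in neither own list and the 3 summits nearest the limit on each side. Members and lists were chosen with earlier results of these data known. Alternatives were another list, reach, annotation, summit definition and single replicates, and near-copy gaps and genic sequence were left out as alternatives chosen after seeing the data. The G+C profile in steps, the word arrangement and the repeat and near-copy counts were also added after seeing the data. The classification and word search were tested on simulated data. Python 3.11.15, numpy 2.4.6, pandas 2.3.3 and scipy 1.17.1 were used.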

Additional observations from a re-analysis of the deposited data

How the results depend on the processing

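Halving the reach to 250 bp left 168 members. It gave a pair share of 18.3%, a density ratio of 6.39, 66.7% of members in both own lists, a signal ratio (members over all peaks) of 1.46, 58.9% of summits in the central of 3 equal parts of the gap and 93 listed genes. A reach of 1000 bp gave a density ratio of 4.58 and 44.9% in that part. The stronger part of the list by signal gave 17.2% of pairs, a density ratio of 6.92, 88.8% in both own lists and a signal ratio of 1.21. Ends of transcripts gave a density ratio of 6.22, removal of summits near small RNA genes 6.03 and, added after seeing the data, sequence outside protein-coding genes 5.40. The less strict list had 67.9% of members in both own lists. With the nearer gene alone 128 listed genes had a summit, against 246. G+C over 100 bp to each side was 38.7%, a window that takes in the A+T-rich trough. Using 1 replicate alone, the pair share was 17.4% to 24.3%, the density ratio 6.15 to 6.26, the share in both own lists 68.9% to 96.8% and the signal ratio 1.42 to 1.65. Each list was compared with itself as well as with the other, and replicate 1's list, which gave 96.8%, is the shorter. For the lists of genes, counts moved by over 1.5 times in 20 of 31 at 250 bp, 17 with the nearer gene alone, 9 at 1000 bp, 8 without replicate 2, 5 in the stronger part, 1 without replicate 1 and 1 with ends of transcripts. No paired analysis was possible because the samples form 1 group. Depth is unknown, so a gap without a peak cannot be told from one below detection.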

Other observations

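The 1348 divergent pairs without a summit in the conservative list were looked up in the other lists. A peak summit was present within the same reach in 37 of them in the less strict list (2.74%), in 16 in replicate 1's own thresholded list (1.19%) and in 45 in replicate 2's (3.34%). In the long ranked lists, which hold 57453 peaks in replicate 1 and 65847 in replicate 2, 140 of these pairs had one in both replicates (10.4%) and 996 in neither (73.9%). Of the 396 pairs with a conservative summit, 382 had one in both ranked lists (96.5%).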
